A study of Mus musculus with 9 samples.

Results

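Inward rectifier, ATP-sensitive and leak potassium channels were examined in left ventricular tissue through 10 genes of the 52636 in the count table. The genes were chosen by name, with earlier results of these data known, and comprise *Kcnj2*, *Kcnj12*, *Kcnj3*, *Kcnj5*, *Kcnj8*, *Kcnj11*, *Abcc8*, *Abcc9*, *Kcnk3* and *Kcnh2*. Of these, *Kcnh2* encodes a delayed rectifier channel of the EAG family, outside the types named above. All 10 passed the expression filter of the test, with between 211 and 32186 reads counted per gene and library. Total RNA came from 16-week-old C57BL6J mice, with 5 libraries labelled VDAC2 WT (libraries 1 to 5) and 4 labelled VDAC2 KO (libraries 6 to 9). The KO is *Vdac2* flox/flox with Cre under the αMHC promoter, which is active in cardiac myocytes, so the other cells of the ventricle keep the gene. WT animals were littermates with either the flox or the Cre allele alone. Both sexes were used in the study, and the labels give no sex for a library. In earlier results of these data, sex-linked genes went with the label, so a sex difference and a label difference cannot be told apart. Sex was not tested here.

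Potassium channels of these families set the resting potential of the cardiac myocyte and shape the end of its action potential. Inward rectifiers (Kir) pass potassium more readily into the cell than out and hold the membrane near the potassium equilibrium potential. The G protein-gated members open when acetylcholine or adenosine acts on the cell, and are best known in atrium and pacemaker tissue. ATP-sensitive channels combine Kir pores with sulfonylurea receptor subunits and open when ATP falls, which couples metabolism to excitability in myocytes and in vascular smooth muscle and pericytes.

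The targeted gene was read first. *Vdac2* (ENSMUSG00000021771, chromosome 14 of GRCm38, 21825238 to 21845879) was at 20.2, 366, 58.5, 365 and 21.3 CPM (counts scaled to the TMM-normalized library size) in libraries 1 to 5, labelled WT. The labelled KO, libraries 6 to 9, measured 384, 20.5, 421 and 19.1 CPM. The level thus goes against the label in libraries 1 and 5 and in libraries 6 and 8. In library 3 it lay between the low and the high levels, and myocyte markers were low there too (below). The *Vdac2* level of library 3 therefore does not decide for or against its label. The groups are named by their labels, labelled WT and labelled KO. The genes had been put forward together with a split of the libraries at under 100 and over 300 CPM of *Vdac2*, with library 3 apart. The values nearest to these limits were 58.5 CPM in library 3 and 365 CPM in library 4. No group was formed from that level, since it would infer a genotype that the labels do not give, and each channel gene is shown library by library beside the *Vdac2* level instead.

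Between 27345052 and 44673988 reads were counted per library, and all libraries labelled WT ran on lane 1 and all labelled KO on lane 2, which means that a lane difference and a label difference cannot be told apart. Nothing in the labels says how libraries relate to animals, and p-values measure the spread between these libraries. Library 3, labelled WT, stood apart. All 7 ventricular myocyte markers (*Myl2*, *Myl3*, *Myh6*, *Tnnt2*, *Tnni3*, *Actc1*, *Ryr2*) were lower in it than in each other library, and their summed level was 13185 CPM against 44910 to 63762 CPM in the other 8. The summed fibroblast markers were at 2858 CPM in library 3 against 884 to 1330 CPM elsewhere, with 4 of 6 above every other library. *Col1a1* (691 CPM against 15.5 to 57.0 CPM) and *Col1a2* (1412 CPM against 67.6 to 153 CPM) carried this rise. *Dcn* was below every other library, at 454 CPM against 560 to 935 CPM, and *Lum* lay within their range, so the fibroblast markers did not share a direction. The macrophage markers summed to 1322 CPM against 264 to 584 CPM, with 5 of 6 above. The other, *Cd163*, was below every other library, at 18.7 CPM against 29.3 to 46.4 CPM. The endothelial markers summed to 405 CPM against 565 to 805 CPM, with 5 of 6 below. The reporting form of the study mentions a WT library dropped over its RNA quality but does not name it, so the result of each channel gene is given with and without library 3. In bulk tissue, fewer cells of a type and less RNA per cell cannot be told apart. Of the 16322 genes tested, library 3 was below each of the other 8 libraries for 37.4% and above each for 37.7%.

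All 10 channel genes were at their lowest in library 3. Relative to the median of the other 8 libraries, library 3 ran from 2.49-fold lower for *Kcnj8* to 15.4-fold lower for *Kcnj3*, with a median log2 difference of -2.18 over the 10 genes and -0.020 over all genes tested. *Kcnj2* was 7.98-fold, *Abcc9* 6.06-fold, *Kcnj11* 5.70-fold, *Abcc8* 5.23-fold, *Kcnh2* 3.91-fold, *Kcnj5* 3.44-fold, *Kcnk3* 3.05-fold and *Kcnj12* 2.61-fold lower. Low myocyte markers went together with the low channel genes in this library, and their part in the result was not tested. Over the other 8 libraries the coefficient of variation ran from 6.51% for *Kcnj5* to 18.6% for *Kcnk3*. It was compared with the tested genes whose mean over these 8 libraries was at least 8 CPM. For 8 of the 10 channel genes it was above the median of those genes, with *Kcnk3* at percentile 91.5. *Kcnj5* and *Kcnj2* were below that median, at 24.8 and 43.3.

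**Figure D1:**
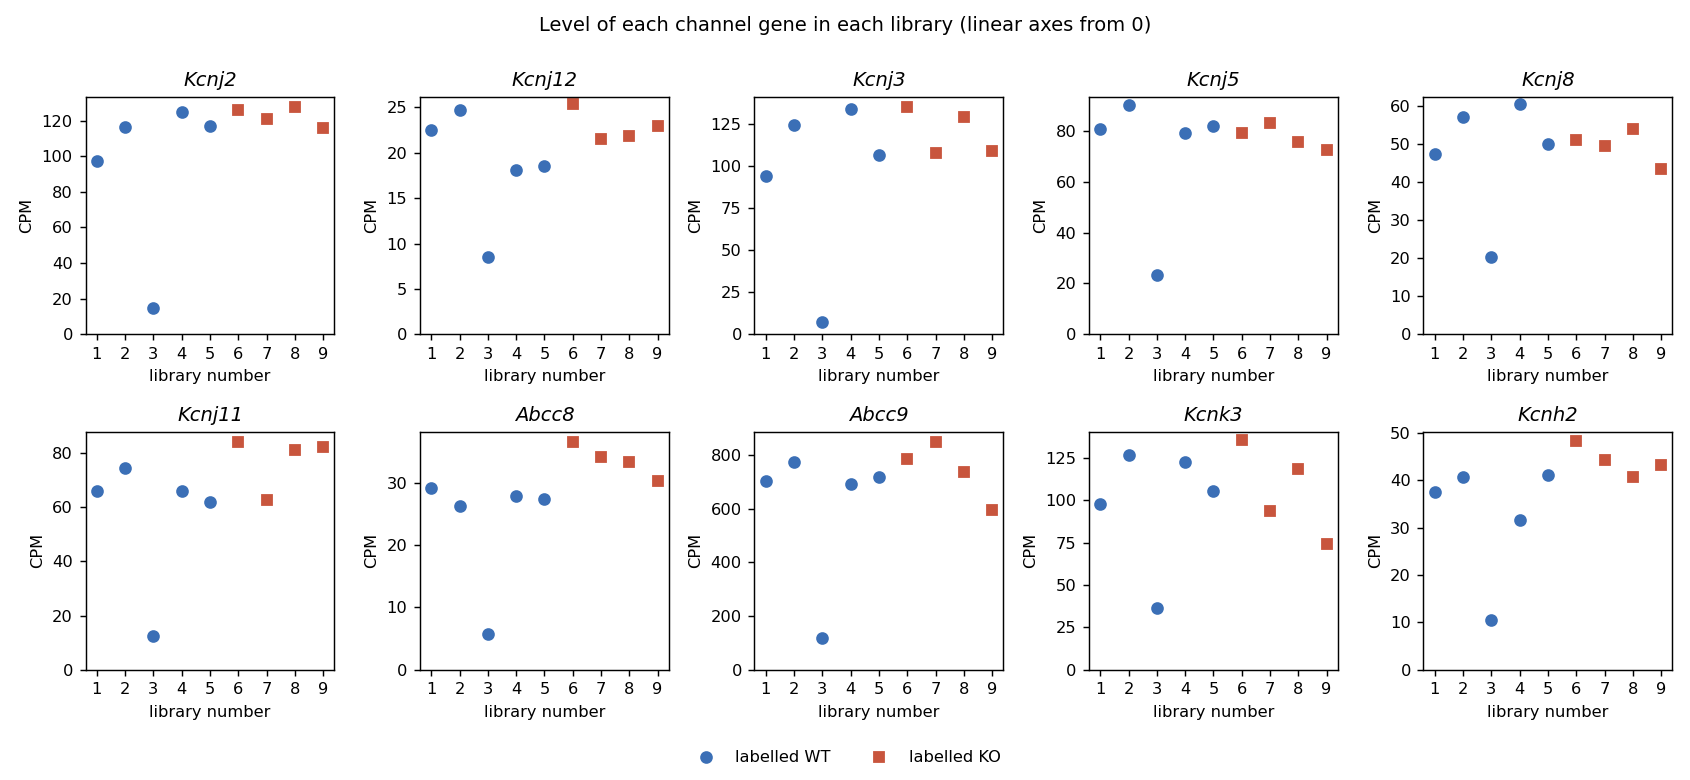
Level of each of the 10 channel genes (CPM, linear axes from 0) in libraries 1 to 9, circles for libraries labelled WT and squares for those labelled KO. Library 3 is the lowest point in every panel, and in the *Abcc8* panel all 4 squares lie above all 5 circles.

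Each label holds libraries with high and with low *Vdac2* levels, so a difference between the labels does not measure the loss of *Vdac2*. Between the labels, 0 of the 10 genes passed at an adjusted p of 0.05, and 0 at an unadjusted p of 0.05 (edgeR quasi-likelihood test, Benjamini-Hochberg over all genes). Of all genes tested, 9 (0.0551%) passed the adjusted threshold and 6.11% the unadjusted one. All 10 log2 fold changes were above 0, from 0.074 for *Kcnj8* to 0.53 for *Abcc8*, with a median of 0.34 against -0.018 over all genes, of which 47.3% were above 0. Cell type markers also differed in direction between the labels, with all 7 ventricular myocyte markers above 0 (median 0.44) and 1 of 6 macrophage markers above 0 (median -0.79), 0 of either list passing the adjusted threshold. Without library 3 these were 6 of 7 (median 0.18) and 0 of 6 (median -0.37), and their part in the channel genes' direction was not tested. For the channel genes without library 3 the median was 0.078 against 0.0030 over all genes, and 7 of the 10 estimates stayed above 0, next to 50.6% of all genes. The adjusted test then called 0 of the 10 genes and 62 of all genes (0.382%), and 2 of the 10 had an unadjusted p under 0.05, next to 11.8% of all genes. DESeq2, the tool of the study, also called 0 of the 10. The common upward direction of the channel genes between labels thus rested on library 3 for *Kcnj5*, *Kcnj8* and *Kcnk3*, whose estimates changed sign without it, and that of *Kcnk3* also did without library 6 (-0.035).

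**Figure D2:**
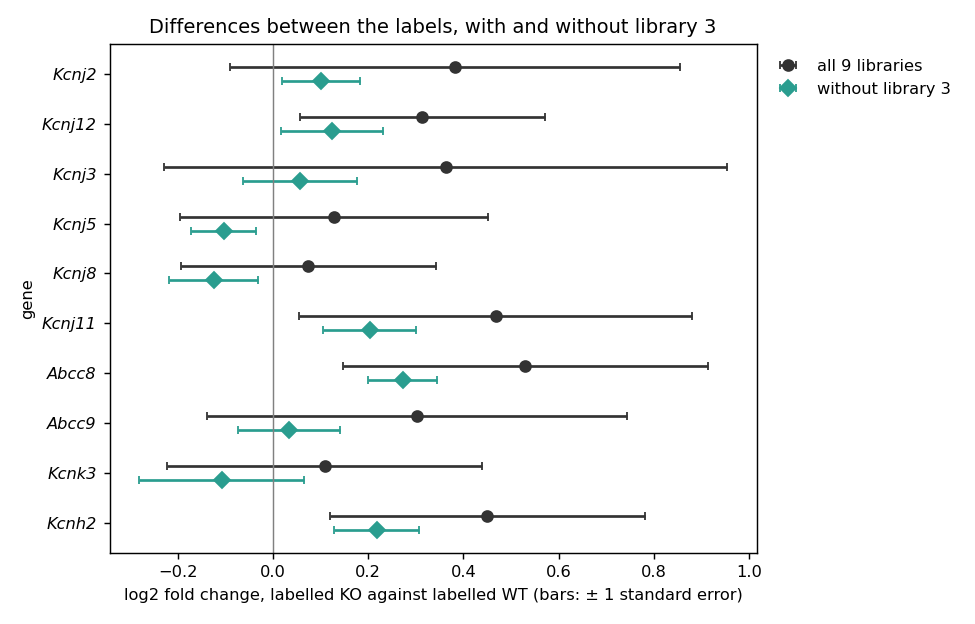
Log2 fold change of each gene, labelled KO against labelled WT, with bars of 1 standard error, from all 9 libraries (circles) and without library 3 (diamonds). Every circle lies above 0 while the diamonds of *Kcnj5*, *Kcnj8* and *Kcnk3* lie below 0, and the bars are shorter without library 3.

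Sequence before the start site is shown for the 2 pore genes that library 3 lowered most and least among those whose window of 250 bases held no annotated exon. RefSeq promoters on GRCm38.p6 were found for 7 of the 10 genes, and both are printed 5′ to 3′ on the gene's own strand. *Kcnj2* is at chr11:111065914-111066163 on the plus strand and *Kcnj8* at chr6:142571615-142571864 on the minus strand. Capitals mark the GC box GGGCGG and the E box CACGTG, read on either strand.
Kcnj2: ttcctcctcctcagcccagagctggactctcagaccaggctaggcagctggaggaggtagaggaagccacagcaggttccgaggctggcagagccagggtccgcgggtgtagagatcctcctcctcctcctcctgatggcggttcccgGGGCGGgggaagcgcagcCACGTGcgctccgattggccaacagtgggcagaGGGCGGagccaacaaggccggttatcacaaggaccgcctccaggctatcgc
Kcnj8: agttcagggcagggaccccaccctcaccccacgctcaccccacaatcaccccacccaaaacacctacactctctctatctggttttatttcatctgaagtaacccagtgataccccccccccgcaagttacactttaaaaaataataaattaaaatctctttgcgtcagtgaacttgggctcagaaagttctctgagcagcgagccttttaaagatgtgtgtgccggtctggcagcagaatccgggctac
The *Kcnj2* window held 2 GC boxes and 1 E box at 65.6% G and C, and the *Kcnj8* window held neither at 49.2%, against a median of 52.4% over 32851 promoters. GC boxes were in 4 of the 7 windows and in 32.7% of all promoters, and E boxes in 1 of the 7 and 6.02% of all. The GATA word AGATAA was in 0 of the 7 windows and 9.99% of all promoters. The TATA box, searched as TATAAA, was in 0 of the 7 and 12.4% of all. The muscle M-CAT word CATTCC was in 1 of the 7, that of *Abcc9*, and in 12.6% of all, and a MEF2 site was in 0 of the 7 and 0.14% of all. These matches are a description of letters only.

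*Kcnj2* and *Kcnj12* encode Kir2.1 and Kir2.2, the pores of the strong inward rectifier current that holds the ventricular myocyte at rest. *Kcnj2* (ENSMUSG00000041695, chromosome 11, 111066164 to 111076821, plus strand) measured 97.2, 116, 14.9, 125 and 117 (CPM, libraries 1 to 5, labelled WT). The labelled KO, libraries 6 to 9, measured 126, 121, 128 and 116 CPM. From highest to lowest the libraries ran 8, 6, 4, 7, 5, 2, 9, 1 and 3, and the labels overlapped. Labelled WT averaged 94.1 ± 45.4 CPM (SD, n = 5), and labelled KO 123 ± 5.45 CPM (SD, n = 4). On the log2 scale the fold change was 0.38 (standard error, SE, 0.47, edgeR adjusted p = 0.77). Without library 3 it was 0.10 (SE 0.082, adjusted p = 0.67).

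*Kcnj12* (ENSMUSG00000042529, chromosome 11, 61022564 to 61071131, plus strand) measured 22.5, 24.7, 8.47, 18.1 and 18.5 (CPM, libraries 1 to 5), then 25.3, 21.5, 21.8 and 22.9 (libraries 6 to 9). The order was 6, 2, 9, 1, 8, 7, 5, 4 and 3, with the labels overlapping. Its log2 fold change was 0.31 (SE 0.26, edgeR adjusted p = 0.70) and without library 3 it was 0.12 (SE 0.11, adjusted p = 0.68). Per base of exon, *Kcnj12* stood at 0.287 to 0.457 of *Kcnj2* in the 8 other libraries and at 1.12 in library 3. The log2 ratio differed by -0.30 between labels (exact two-sided permutation test, p = 0.63 raw and adjusted over 4 ratios) and by 0.028 without library 3.

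*Kcnj3* and *Kcnj5* encode Kir3.1 and Kir3.4, which assemble into the acetylcholine-activated channel. *Kcnj3* (ENSMUSG00000026824, chromosome 2, 55435970 to 55598145, plus strand) measured 93.9, 125, 7.58, 134 and 107 (CPM, libraries 1 to 5, labelled WT), then 135, 108, 129 and 109 (libraries 6 to 9, labelled KO). The order was 6, 4, 8, 2, 9, 7, 5, 1 and 3, so each label was spread over the order. The first in this order, libraries 6, 4, 8 and 2, also had the highest *Vdac2* levels (365 to 421 CPM). They are the high side of the split that was put forward together with the genes. Such an order was not tested, and its share among all genes was not examined. Labelled WT averaged 93.4 ± 50.4 CPM (SD, n = 5), and labelled KO 120 ± 14.04 CPM (SD, n = 4). On the log2 scale the fold change was 0.36 (SE 0.59, edgeR adjusted p = 0.83). It was 0.057 (SE 0.12, adjusted p = 0.89) without library 3. The antisense gene *Gm26794* shares 1621 exonic bases with *Kcnj3* and had at most 34 counts in any library, so reads assigned to it were few, but without a stated strand setting the source of reads in the shared stretch is uncertain.

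*Kcnj5* (ENSMUSG00000032034, chromosome 9, 32314707 to 32344350, minus strand) was the steadiest of the 10 genes outside library 3. It measured 80.8, 90.1, 23.2, 79.2 and 81.9 (CPM, libraries 1 to 5), then 79.1, 83.1, 75.5 and 72.6 (libraries 6 to 9). The order was 2, 7, 5, 1, 4, 6, 8, 9 and 3. The log2 fold change of 0.13 (SE 0.32, edgeR adjusted p = 0.89) became -0.10 (SE 0.069, adjusted p = 0.58) without library 3. The ratio of *Kcnj3* to *Kcnj5* per base of exon lay between 1.04 and 1.54 in the 8 other libraries and at 0.293 in library 3. Between labels the log2 ratio differed by 0.58 (exact two-sided permutation test, p = 0.17, adjusted p = 0.23 over 4 ratios) and by 0.17 without library 3 (p = 0.31, adjusted p = 0.42).

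Markers of atrial tissue were read beside this pair. *Sln*, sarcolipin, which is abundant in mouse atrium, had at most 2 counts in any library. *Myl7*, the atrial light chain, was between 0.115 and 1.13 CPM. The 6 atrial markers together came to 33.3 to 38.0 CPM in the 8 other libraries and 22.0 CPM in library 3. Most of that sum came from *Stard10* (13.1 to 19.3 CPM in the 8 other libraries), *Tbx5* (at least 10.1 CPM) and *Nr2f2* (4.46 to 7.06 CPM), while *Myl4* was at 1.59 to 2.43 CPM. The part of atrial tissue in the *Kcnj3* level was not tested. *Hcn4*, the pacemaker channel, was between 0.324 and 5.14 CPM, and *Isl1*, a pacemaker transcription factor, had a highest level of 0.0588 CPM.

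The input to the acetylcholine-activated channel was taken from a list of 17 receptor, G protein and RGS genes, all tested. None passed the adjusted threshold in either direction, with or without library 3. An unadjusted p under 0.05 was found for 1 of the 17, next to 6.11% of all genes, and for 4 of the 17 without library 3, next to 11.8% of all genes. The median log2 fold change was -0.075, with 8 of 17 above 0, and turned to 0.045, with 9 of 17 above 0, without library 3. *Chrm2*, the cardiac muscarinic receptor, was the most abundant of the list in the 8 other libraries, at 211 to 318 CPM. In library 3 it was at 111 CPM, below *Gnai2* and *Gnb1*. Its log2 fold change was 0.38 (SE 0.23, edgeR adjusted p = 0.68). *Gnai2*, an inhibitory G protein alpha subunit, was at 89.9 to 144 CPM and at 169 CPM in library 3, with 0.0060 (SE 0.20, adjusted p = 0.99). *Gnb1*, a beta subunit, was at 56.3 to 67.4 CPM and at 139 CPM in library 3, with -0.27 (SE 0.27, adjusted p = 0.73). Without library 3 these estimates were 0.21, 0.18 and 0.055, with adjusted p of 0.45, 0.56 and 0.81. In library 3, 6 of the 17 were below and 8 above every other library. The genes with an unadjusted p under 0.05 are named after their values were seen. With all 9 libraries this was *Adora1*, the adenosine A1 receptor. Its labelled WT values ran from 6.80 to 9.36 CPM and its labelled KO values from 10.5 to 13.3 CPM, for which edgeR gave 0.52 on the log2 scale (SE 0.14, adjusted p = 0.68), and 0.46 (SE 0.12, adjusted p = 0.17) without library 3. The other 3 without library 3 were G protein beta and gamma subunit genes, with edgeR estimates of 0.24 for *Gnb2* (SE 0.060, adjusted p = 0.15), -0.24 for *Gng11* (SE 0.074, adjusted p = 0.26) and -0.31 for *Gng2* (SE 0.12, adjusted p = 0.35). With all libraries these were 0.085, -0.15 and -0.62.

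The ATP-sensitive channels have 2 pore genes, *Kcnj11* (Kir6.2, the pore of the ventricular myocyte channel) and *Kcnj8* (Kir6.1, prominent in pericytes and vascular smooth muscle), and 2 receptor genes, *Abcc9* (SUR2) and *Abcc8* (SUR1). The genes lie as neighbours in pairs, *Kcnj11* (ENSMUSG00000096146, 46093953 to 46100764) beside *Abcc8* (ENSMUSG00000040136, 46104523 to 46180033) on chromosome 7, and *Kcnj8* (ENSMUSG00000030247, 142564837 to 142571614) beside *Abcc9* (ENSMUSG00000030249, 142587862 to 142702315) on chromosome 6. All 4 are on the minus strand.

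*Kcnj11* measured 66.1, 74.4, 12.3, 65.9 and 62.1 (CPM, libraries 1 to 5, labelled WT), then 84.2, 62.7, 81.3 and 82.3 (libraries 6 to 9, labelled KO). The order was 6, 9, 8, 2, 1, 4, 7, 5 and 3, so 3 of the libraries labelled KO came first and library 7 lay among those labelled WT. Labelled WT averaged 56.2 ± 24.9 CPM (SD, n = 5), and labelled KO 77.7 ± 10.01 CPM (SD, n = 4). On the log2 scale the fold change was 0.47 (SE 0.41, edgeR adjusted p = 0.71) and 0.20 (SE 0.097, adjusted p = 0.44) without library 3.

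*Kcnj8* measured 47.4, 57.2, 20.3, 60.5 and 50.1 (CPM, libraries 1 to 5), then 51.2, 49.5, 54.0 and 43.6 (libraries 6 to 9). The order was 4, 2, 8, 6, 5, 7, 1, 9 and 3, with the labels overlapping. Libraries 4, 2, 8 and 6, at the top, also had the highest *Vdac2* levels (365 to 421 CPM) and are the high side of the split put forward with the genes. Such an order was not tested, and its share among all genes was not examined. The log2 fold change was 0.074 (SE 0.27, edgeR adjusted p = 0.92) and -0.13 (SE 0.093, adjusted p = 0.63) without library 3. *Rgs5*, a pericyte marker, was at 276 CPM in library 3 and at 733 to 1059 CPM in the others, so it was low where *Kcnj8* was low. Of the 8 pericyte and smooth muscle markers, 2 were below and 5 above every other library in library 3, and their summed level was 3781 CPM there against 2329 to 2733 CPM. *Des*, desmin, which myocytes also express, made up most of the sum in library 3, at 2800 CPM there and 974 to 1394 CPM elsewhere. Without *Des* the other 7 markers summed to 981 CPM in library 3 and to 1200 to 1445 CPM elsewhere, and without both *Des* and *Rgs5* the other 6 summed to 704 CPM and to 302 to 606 CPM. Both genes were left out after their values were seen, and the direction of the sum depended on them. The part of mural cells in the *Kcnj8* level was not tested.

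Per base of exon, *Kcnj8* and *Kcnj11* were close to each other. Their ratio was 1.03, 1.11, 2.38, 1.32 and 1.16 in libraries 1 to 5 and 0.877, 1.14, 0.959 and 0.764 in libraries 6 to 9. The ratio was above 1 in all 5 libraries labelled WT and in 1 of the 4 labelled KO, library 7. With the longest transcript as length each ratio was 0.855 of this value, which left libraries 3 and 4 above 1 and 0 of the 4 labelled KO. The log2 ratio differed by -0.53, labelled KO against labelled WT (exact two-sided permutation test, p = 0.048, adjusted p = 0.19 over 4 ratios), and by -0.32 without library 3 (p = 0.086, adjusted p = 0.17). The smallest raw p the design allows is 0.016 with all libraries and 0.029 without library 3. A single ratio at that limit would have an adjusted p of 0.063 or 0.11 over 4 ratios. No ratio could thus pass 0.05 after adjustment unless the p of other ratios was low as well.

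*Abcc8* was the only one of the 10 genes in which the labels did not overlap. It measured 29.2, 26.2, 5.69, 27.8 and 27.4 (CPM, libraries 1 to 5, labelled WT), then 36.6, 34.1, 33.4 and 30.3 (libraries 6 to 9, labelled KO). Of all genes tested, 4.36% did not overlap in either direction and 2.3% with the labelled KO higher. When library 3 was left out these shares were 7.44% and 3.74%. Labelled WT averaged 23.3 ± 9.89 CPM (SD, n = 5), or 27.7 ± 1.23 CPM (SD, n = 4) without library 3, and labelled KO 33.6 ± 2.60 CPM (SD, n = 4). On the log2 scale the fold change was 0.53 (SE 0.38, edgeR adjusted p = 0.69) and 0.27 (SE 0.072, unadjusted p = 0.0031, adjusted p = 0.19) without library 3. The difference therefore did not pass the test over all genes.

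*Abcc9* measured 702, 772, 120, 690 and 719 (CPM, libraries 1 to 5), then 783, 848, 737 and 594 (libraries 6 to 9). The order was 7, 6, 2, 8, 5, 1, 4, 9 and 3, so the libraries labelled KO held both the highest and the second lowest value. The log2 fold change was 0.30 (SE 0.44, edgeR adjusted p = 0.81) and 0.033 (SE 0.11, adjusted p = 0.93) without library 3. *Abcc8* stood at 0.0352 to 0.0528 of *Abcc9* per base of exon over all 9 libraries (0.0522 to 0.0785 with the longest transcript as length), library 3 included at 0.0491, so both receptor genes were lower in library 3 by a like factor. The log2 ratio differed by 0.19 between labels (exact two-sided permutation test, p = 0.16, adjusted p = 0.23) and by 0.25 without library 3 (p = 0.086, adjusted p = 0.17).

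**Figure D3:**
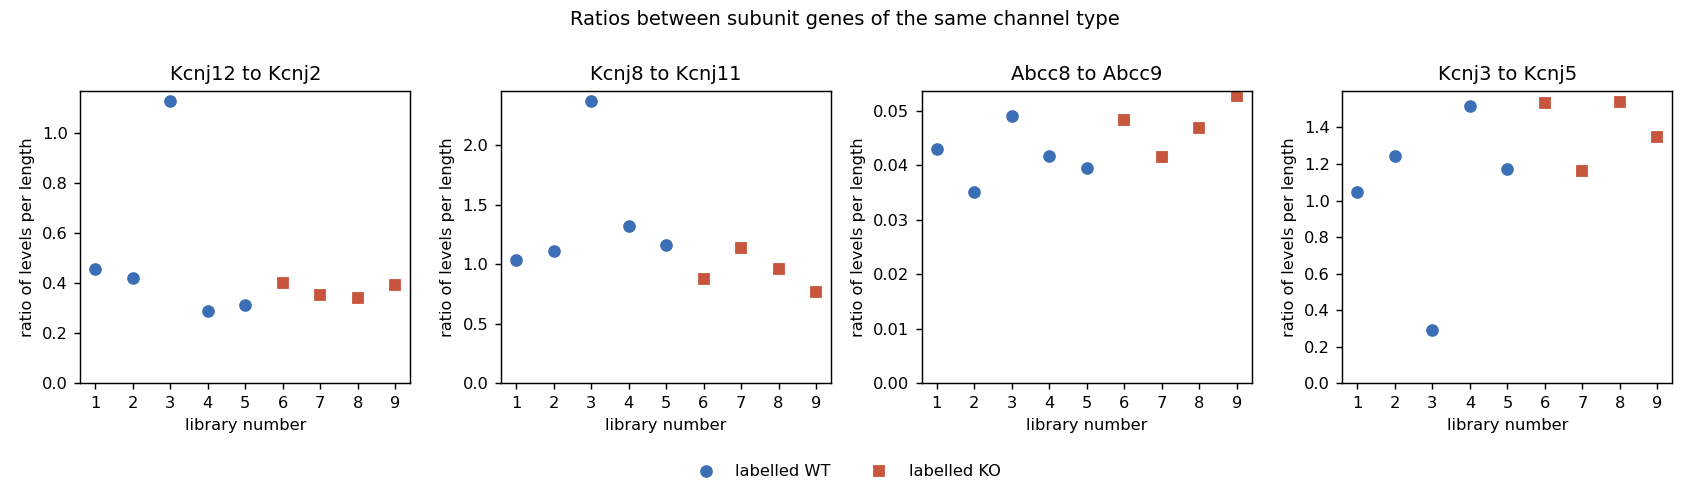
Ratio of exon-length-normalized levels in each library for *Kcnj12* to *Kcnj2*, *Kcnj8* to *Kcnj11*, *Abcc8* to *Abcc9* and *Kcnj3* to *Kcnj5*, circles for labelled WT and squares for labelled KO. Library 3 is the highest point at 1.12 and 2.38 in the first and second panels and the lowest at 0.293 in the last, and it lies within the range of the others at 0.0491 in the *Abcc8* to *Abcc9* panel.

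*Kcnk3* encodes TASK-1, an acid-sensitive two-pore leak channel. It lies on chromosome 5 (ENSMUSG00000049265, 30588170 to 30625271, plus strand) and measured 97.6, 127, 36.6, 122 and 105 (CPM, libraries 1 to 5, labelled WT). The labelled KO, libraries 6 to 9, measured 135, 93.6, 118 and 73.9 CPM. The order was 6, 2, 4, 8, 5, 1, 7, 9 and 3, and the labelled KO held the highest value and the second lowest. Libraries 6, 2, 4 and 8, the high side of the split put forward with the genes, came first here and had the highest *Vdac2* levels (365 to 421 CPM). Such an order was not tested, and its share among all genes was not examined. *Kcnk3* had the widest spread of the 10 genes outside library 3, with the highest of the 8 libraries 1.83-fold above the lowest. Labelled WT averaged 97.6 ± 36.1 CPM (SD, n = 5), and labelled KO 105 ± 26.99 CPM (SD, n = 4). On the log2 scale the fold change was 0.11 (SE 0.33, edgeR adjusted p = 0.91). Without library 3 it was -0.11 (SE 0.17, adjusted p = 0.85). The transcript *Gm9899*, on the other strand, shares 229 exonic bases with *Kcnk3* and was at 2.64 to 11.6 CPM.

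Of 13 other two-pore channel genes, 4 were tested and none passed the adjusted threshold, and 1, *Kcnk13*, had an unadjusted p under 0.05 with and without library 3, next to 6.11% and 11.8% of all genes. Their 4 estimates were all below 0, with a median of -0.56 that became -0.38 without library 3. *Kcnk6* was at 3.54 to 5.61 CPM in the 8 other libraries and 9.63 CPM in library 3, with a log2 fold change of -0.38 (SE 0.27, edgeR adjusted p = 0.69) that became -0.11 (SE 0.15, adjusted p = 0.81) without library 3. *Kcnk2*, the stretch-sensitive TREK-1, was at 0.946 to 1.71 CPM and at 3.72 CPM in library 3, with -0.73 (SE 0.33, adjusted p = 0.68) and, without library 3, -0.36 (SE 0.18, adjusted p = 0.46). *Kcnk13* was at 0.677 to 2.17 CPM and at 4.75 CPM in library 3, with -1.31 (SE 0.46, adjusted p = 0.68) and, without library 3, -0.78 (SE 0.26, adjusted p = 0.29). In CPM, *Kcnk3* was counted far more often than these genes in every library. Library 3, the lowest for *Kcnk3*, was the highest for these 3, while the other tested gene, *Kcnk5*, was lowest there, at 0.458 CPM against 0.583 to 1.21 CPM.

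*Kcnh2* encodes the ERG channel of the rapid delayed rectifier current. It lies on chromosome 5 (ENSMUSG00000038319, 24319589 to 24351604, minus strand) and measured 37.6, 40.7, 10.5, 31.7 and 41.2 (CPM, libraries 1 to 5), then 48.3, 44.2, 40.8 and 43.3 (libraries 6 to 9). The order was 6, 7, 9, 5, 8, 2, 1, 4 and 3, and the labels overlapped through libraries 5 and 8. The log2 fold change was 0.45 (SE 0.33, edgeR adjusted p = 0.69) and 0.22 (SE 0.090, unadjusted p = 0.033, adjusted p = 0.37) without library 3.

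Among 12 other genes of the EAG family and the KCNE accessory subunits, 4 were tested and none passed the adjusted threshold. *Kcne1*, which encodes the partner of the slow delayed rectifier channel, measured 3.09, 4.75, 0.917, 6.32 and 7.20 (CPM, libraries 1 to 5), then 9.84, 9.02, 9.47 and 7.71 (libraries 6 to 9). Its labels did not overlap, next to 2.3% of all genes with the labelled KO higher and 3.74% without library 3. Its log2 fold change was 1.02 (SE 0.46, edgeR adjusted p = 0.68) and 0.75 (SE 0.22, adjusted p = 0.23) without library 3. *Kcne5*, another accessory subunit gene, was at 0.190 to 0.328 CPM in the labelled WT and 0.441 to 0.739 CPM in the labelled KO, with at most 32 counts and a log2 fold change of 0.95 (SE 0.26, adjusted p = 0.68), or 1.01 (SE 0.30, adjusted p = 0.23) without library 3. An unadjusted p under 0.05 was found for 1 of the 4 genes, *Kcne5*, next to 6.11% of all genes, and without library 3 for 2 of 3, *Kcne5* and *Kcne1*, next to 11.8%. The other 2 tested genes had estimates below 0. *Kcne4* ranged from 1.90 to 4.04 CPM outside library 3 and reached 18.6 CPM in it, with -1.22 from edgeR (SE 0.63, adjusted p = 0.68) and, without library 3, -0.25 (SE 0.21, adjusted p = 0.68). *Kcne3* was at 0.485 CPM in library 3 and 0.110 to 0.471 CPM elsewhere, with -0.049 (SE 0.39, adjusted p = 0.97), and did not pass the filter on low counts without library 3. *Kcne2*, described as an ERG partner, had 0 counts in all libraries, and 3 counts correspond to 0.0693 to 0.114 CPM, a floor that covers counting error only.

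Of 9 other Kir genes, 2 were tested and neither passed the adjusted threshold. *Kcnj15* was at 10.2 CPM in library 3 and at 0.460 to 0.987 CPM in the other 8, and *Kcnj14* at 4.53 CPM against 0.0761 to 0.600 CPM. Their log2 fold changes between labels were -1.77 (SE 0.97, edgeR adjusted p = 0.68) and -1.61 (SE 1.12, adjusted p = 0.68). Without library 3, *Kcnj15* was at 0.15 (SE 0.27, adjusted p = 0.87) and *Kcnj14* no longer passed the filter on low counts, so it entered the test only through library 3. *Kcnj4*, the gene of Kir2.3, was at 0.890 CPM in library 3 and at 0.153 to 0.353 CPM elsewhere, and was not tested. So these 3 genes were highest in the library in which *Kcnj2*, *Kcnj12*, *Kcnj3*, *Kcnj5*, *Kcnj8* and *Kcnj11* were lowest.

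To compare the genes with each other, CPM was divided by the length of the union of exons, giving RPKM (CPM per kilobase of exon). *Abcc9* was highest, with a median of 86.9 RPKM over the 8 libraries other than library 3 (range 70.9 to 101). *Kcnk3* followed at 28.1 RPKM (18.6 to 34.0), then *Kcnj3* at 22.4 RPKM (18.0 to 25.9), *Kcnj2* at 21.9 RPKM (17.9 to 23.5), *Kcnj8* at 19.9 RPKM (17.1 to 23.7), *Kcnj11* at 19.1 RPKM (16.9 to 22.9) and *Kcnj5* at 17.1 RPKM (15.5 to 19.2). *Kcnh2* at 8.46 RPKM (6.55 to 9.98), *Kcnj12* at 8.05 RPKM (6.58 to 9.21) and *Abcc8* at 3.68 RPKM (3.24 to 4.52) were lowest. With the longest transcript as length, *Abcc8* was at 6.10 RPKM. Neighbours from *Kcnk3* down to *Kcnj5* had overlapping ranges, as did *Kcnh2* and *Kcnj12*. The ranges of *Abcc9* and *Kcnk3*, of *Kcnj5* and *Kcnh2*, and of *Kcnj12* and *Abcc8* did not overlap, and the first of each pair was higher in all 9 libraries. In library 3 the order differed, with *Kcnj3* at 1.45 RPKM below *Kcnh2* at 2.16 RPKM.

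**Figure D4:**
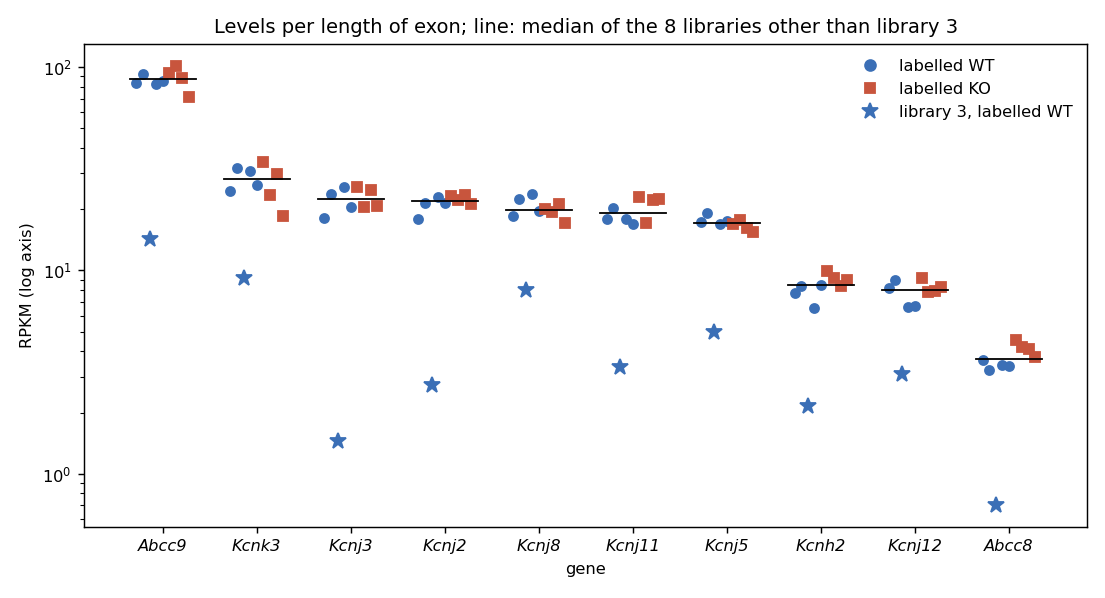
Level per length of exon (RPKM, log axis) of the 10 genes, ordered by the median of the 8 libraries other than library 3 (line), with circles for labelled WT, squares for labelled KO and a star for library 3. *Abcc9* lies above 70 RPKM outside library 3, *Kcnk3* to *Kcnj5* form a band of overlapping ranges, and the star is farthest below its line for *Kcnj3*.

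**Figure D5:**
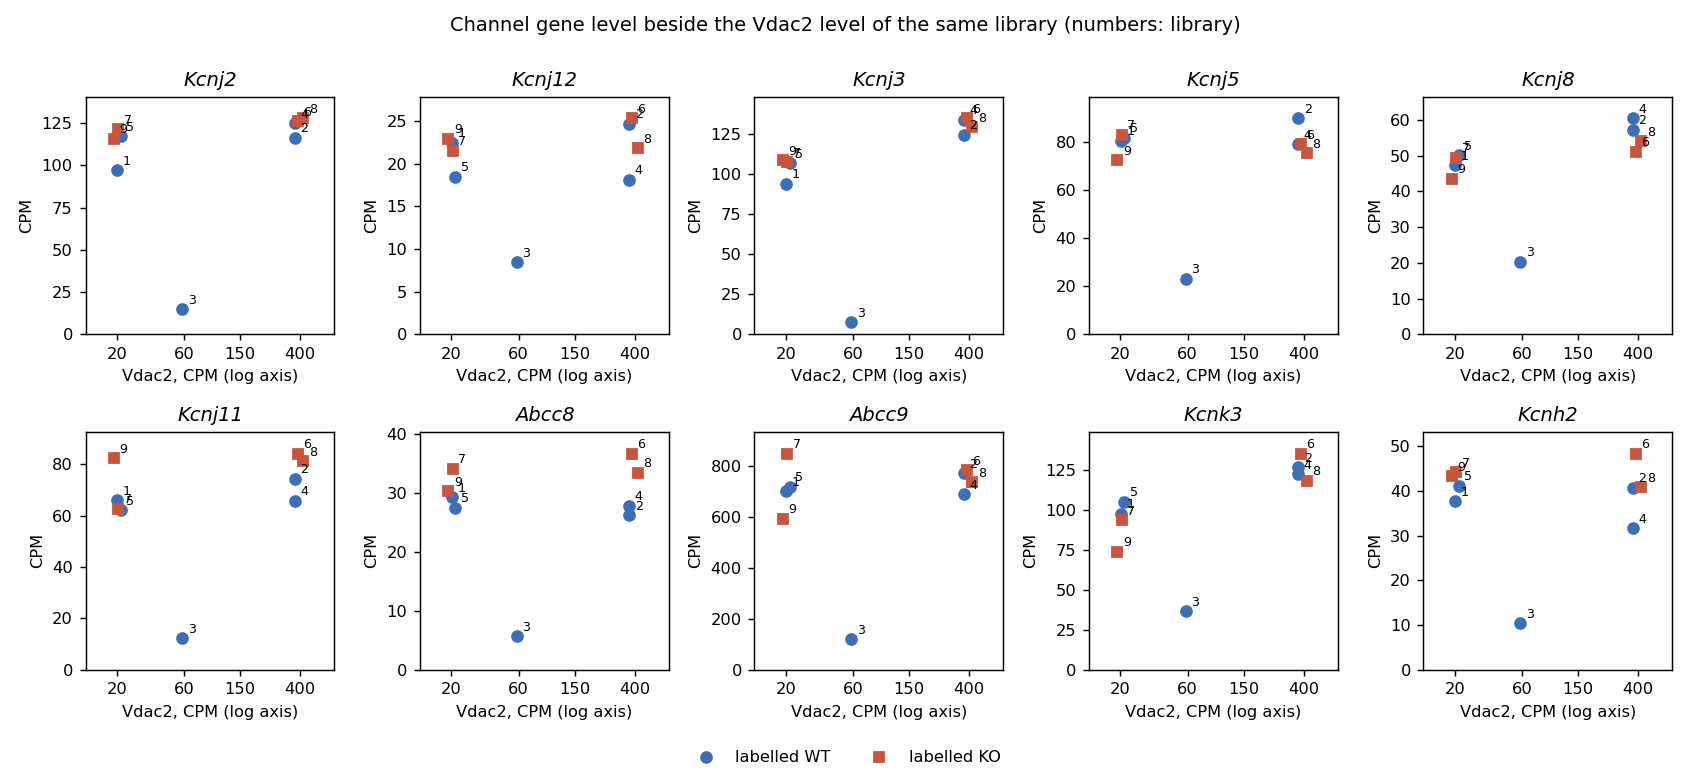
Level of each channel gene (CPM, linear axis from 0) against the *Vdac2* level of the same library (CPM, log axis), with library numbers beside the points, circles for labelled WT and squares for labelled KO. Library 3 at 58.5 CPM of *Vdac2* is the lowest point of each panel, and both labels occur at both ends of the horizontal axis. In the *Kcnj3*, *Kcnj8* and *Kcnk3* panels, libraries 2, 4, 6 and 8, with the most *Vdac2*, lie above all others, and in the other panels they do not. Libraries 2, 4, 6 and 8 are the high side of the split put forward with the genes. No difference along that axis was tested, and the share of all genes with such an order was not examined.

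Genes of like pattern were sought by Pearson's correlation of log2 CPM (0.5 CPM added) over the 8 libraries other than library 3. As a description, the 3 closest tested genes were taken for each channel gene. The channel genes themselves were left out of the search. For *Kcnj3* these were *Atcayos*, *Kbtbd13* and *Erg* (0.98 each), and for *Kcnk3* they included *Irs1* (0.99) and *Lama5* (0.98). *Kcnj8* came closest to *Slc28a2* (0.99), *Gm42583* (0.98) and *Stag1* (0.97), and *Kcnj11* to *Gm48630*, *Thoc3* and *Tmem259* (0.99 each). *Kcnj2* was nearest to *Micall2* (0.98), *Nxf1* (0.97) and *Ahrr* (0.96), *Kcnj12* to *Tfap4* (0.98), *Dmwd* (0.95) and *Gm45494* (0.95), and *Kcnj5* to *Gm43544* (0.98), *Csgalnact1* (0.98) and *Spred3* (0.96). *Abcc8* was nearest to *Slk* (0.98), *Ciz1* (0.97) and *Ero1lb* (0.96), *Abcc9* to *Gm45407* (0.98), *Gm42479* (0.97) and *Diexf* (0.96), and *Kcnh2* to *4930550C14Rik* (0.96), *Pycard* (0.96) and *Pla2g4b* (0.94). These were the highest among the 16322 tested genes, with the channel genes left out, over 8 points that share libraries and depth. Of the 30 genes, 1, *Gm42583*, stayed among the closest 3 over all 9 libraries.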

How the data were processed

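Total RNA from left ventricular tissue was depleted of ribosomal RNA, prepared with a stranded kit and sequenced as 50-base single-end reads. The authors deposited raw counts of reads per Ensembl gene, aligned to GRCm38, and the submitters' processing notes name STAR 2.7.2c and featureCounts 1.6.3. How strand and multi-mapped reads were handled, and from which annotation release, is not given in the sources used here. All 9 columns were matched to samples by the library number in the title and grouped by the deposited labels. The 10 genes, the lists and the split by *Vdac2* level were chosen with earlier results of these data known, and no group was formed from a measured level.

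Differential expression was fitted on all genes in edgeR 4.0.16 under R 4.3.3 with filterByExpr (16322 of 52636 genes), TMM, robust dispersions and the quasi-likelihood test. Standard errors were taken as the size of the estimate over the root of its F statistic. Ratios of subunit genes were tested by an exact permutation test (scipy 1.17.1). Lengths and positions are from GENCODE M21. The scripts were tested on simulated data with 1 dispersion of 0.099 for all genes. The test called 40.8% of the genes changed 2-fold and 100% of those changed 4-fold. No smaller change was simulated. Reads of 50 bases could be shared with another gene's transcripts for 29.3% of the stretches of *Kcnj3* (all with the antisense *Gm26794*), 4.89% of *Kcnk3*, 1.95% of *Abcc9* and 0.204% of *Kcnj2*, and for 0 of the other 6 genes.

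Named genes were all 10 channel genes, the 3 of highest mean CPM in each list, and the 3 genes outside the 10 that were closest in pattern to each channel gene. Of these, 1 is not reported here. Alternatives tried were upper-quartile and RLE scaling, DESeq2 1.42.0, no filter and a filter of 10 counts in every library, quality weights (limma 3.58.1), mitochondrially encoded genes left out, the study's filters, each library left out, a pseudocount for ratios, the longest transcript as length, and likeness over 9 libraries.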

Additional observations from a re-analysis of the deposited data

Results flagged for a closer look

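Library 3, labelled WT, lay far below the other 4 libraries of its label, by Dixon's criterion at the 95% level, for *Kcnj2* (14.9 CPM), *Kcnj5* (23.2 CPM), *Kcnj11* (12.3 CPM), *Abcc8* (5.69 CPM) and *Abcc9* (120 CPM). The same library lay far above them for the ratio of *Kcnj12* to *Kcnj2* (1.12) and of *Kcnj8* to *Kcnj11* (2.38). Library 7, labelled KO, was far below the other 3 libraries of its label for *Kcnj11* (62.7 CPM). Of 28 groups of values examined, 8 held such a sample, and in 7 of them it was library 3. Chance gives about 1 in 20 for a single group. The groups share libraries and genes and are not independent, so the count cannot be set against that share.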

How the results depend on the processing

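None of the 10 channel genes, and none of the tested genes of the 4 pathway lists, had an adjusted p under 0.05 in any of the 16 alternative fits, and the lowest adjusted p of a channel gene ran from 0.19 without library 3 to 0.90 without library 8. The number of called genes among all tested was 9, and 62 with DESeq2, 77 with library quality weights and 0 with at least 10 counts in every library. It ranged from 5 (without library 1, 2 or 4) to 62 (without library 3) with 1 library left out in turn. The median log2 fold change of the 10 channel genes was 0.34, and 0.13 with quality weights, and from 0.078 (without library 3) to 0.46 (without library 2) with 1 library left out. With quality weights the estimates changed sign for *Kcnj5* (-0.076), *Kcnj8* (-0.076) and *Kcnk3* (-0.016). With 1 library left out they ran from -0.10 to 0.23 for *Kcnj5*, from -0.13 to 0.18 for *Kcnj8* and from -0.11 to 0.25 for *Kcnk3*, below 0 without library 3 and, for *Kcnk3*, also without library 6 (-0.035). The difference in the *Kcnj12* to *Kcnj2* ratio ranged from -0.46 to 0.028, above 0 without library 3. Of the 30 genes closest in pattern, 1 stayed so over 9 libraries. With the longest transcript as length, *Abcc8* moved from 3.68 to 6.10 RPKM, *Kcnj11* from 19.1 to 22.4 RPKM, level with *Kcnj3*, *Abcc9* from 86.9 to 97.04 RPKM and *Kcnh2* from 8.46 to 9.71 RPKM. The cause of these changes was not tested. No paired analysis was possible because the labels give the libraries of both groups no shared replicate numbers.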
